A study of Mus musculus with 24 samples.

Results

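Collagens are the triple-helical proteins that give the extracellular matrix its fibrils and sheets. The 41 collagen genes described here are all entries of the expression table outside the X chromosome whose symbol names a collagen chain (Col, a type number, a and a chain number), out of 22028 genes listed outside X and Y. They comprise 11 genes of fibrillar chains, 4 of the basement-membrane type IV and 26 of other types. The X-linked Col4a5 and Col4a6 were listed at 0 in every library, since reads of the X chromosome were removed by the authors, and were left out. Poly(A) RNA was measured in 24 libraries of the female mouse embryonic stem cell (mESC) line JB4/EI7HZ2, an F1 hybrid of the JF1 and B6 strains that carries a drug-resistance gene on each X, and of its SmcHD1-mutant derivative. SmcHD1 is a chromatin protein that acts on the inactive X chromosome and on autosomal gene clusters. Each genotype, wild type (WT) and SmcHD1 knockout (KO), was sampled in 4 states, with 3 libraries in each of the 8 groups. These states were mESCs in serum with 2i and LIF, cells of neurectoderm-directed aggregates at day 7 and day 9, and neural stem cells (NSCs) kept with FGF2 and EGF. WT and KO are 1 line each, the KO carrying frameshift deletions made by CRISPR–Cas9, so genotype and line cannot be told apart.

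A collagen chain is hydroxylated, glycosylated and trimerized in the endoplasmic reticulum, secreted, trimmed and crosslinked. Fibrillar chains of types I, III and V form the fibrils of connective tissue and types II and XI those of cartilage and notochord sheath, whereas type IV chains form the sheet under epithelia and vessels, to which the heparan-sulfate-bearing type XVIII is attached. Neural progenitors touch a basement membrane, and fibrillar collagens of the developing head and trunk are made largely by mesenchyme, meninges and the notochord.

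Values are deposited FPKM, that is, fragment counts divided by transcript length and by a library size whose normalization is not given in the sources used here. Differences were tested with limma on log2(FPKM + 1) over 12105 genes that averaged at least 1 FPKM; "called" means an adjusted p below 0.05. Read totals per library were not used here. Relative read numbers, taken from the steps of low values, ranged from 0.811 to 1.15. Smchd1, the mutated gene, was listed at 13 to 26.4 FPKM in the WT libraries and at 1.82 to 4.4 in the KO libraries, which do not overlap. The labelled states bore their markers: 6 pluripotency genes summed to 2473 to 2979 FPKM in mESCs and to 5.72 to 12.6 in NSCs, and 6 NSC genes to 93.2 to 155 in mESCs and to 4084 to 7058 in NSCs. In bulk libraries such as these the data cannot tell fewer cells of a type from less RNA per cell.

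Of the 41 genes, all were above 0 in at least 1 library, and 20 passed the filter: 9 fibrillar, 2 of type IV and 9 other. Of the 20, 4 (Col3a1, Col5a3, Col23a1 and Col28a1) passed only through their highest group. Several lie next to each other. In mm9, the build of the files, Col4a1 (chr8:11198423-11312826) and Col4a2 (chr8:11312829-11449287) are 2 bp apart and transcribed away from each other, and Col3a1 (chr1:45368383-45406551) lies 24.6 kb from Col5a2 (chr1:45431176-45560127).

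Promoter windows of 300 bases around the annotated start are shown for genes that differed between WT and KO cells below: the shared start of the type IV pair, and the starts of Col3a1 and Col1a2. They are RefSeq sequences of GRCm38.p6, whose coordinates differ from those of mm9. The windows of Col4a1 and Col4a2 share 78 bases (chr8:11312777-11312854), so that 1 window shows both starts. Capitals mark, on either strand, the TATA box letters TATAAA, the CCAAT box letters CCAAT and the GC box letters GGGCGG. The windows are Col4a2 at chr8:11312555-11312854 (plus strand), Col3a1 at chr1:45311288-45311587 (plus strand) and Col1a2 at chr6:4505368-4505667 (plus strand).
Col4a2: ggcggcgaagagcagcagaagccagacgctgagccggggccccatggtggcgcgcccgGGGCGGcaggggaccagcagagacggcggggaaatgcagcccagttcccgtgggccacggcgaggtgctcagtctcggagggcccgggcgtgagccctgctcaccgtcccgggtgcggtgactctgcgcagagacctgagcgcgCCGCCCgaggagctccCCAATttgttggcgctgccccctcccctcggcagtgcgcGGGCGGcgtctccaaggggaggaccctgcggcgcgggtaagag
Col3a1: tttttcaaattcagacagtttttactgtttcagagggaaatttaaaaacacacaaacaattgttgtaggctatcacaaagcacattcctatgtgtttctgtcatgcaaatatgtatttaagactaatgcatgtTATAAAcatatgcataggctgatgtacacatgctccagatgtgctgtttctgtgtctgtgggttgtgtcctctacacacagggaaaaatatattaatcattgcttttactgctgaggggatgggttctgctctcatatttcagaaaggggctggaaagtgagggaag
Col1a2: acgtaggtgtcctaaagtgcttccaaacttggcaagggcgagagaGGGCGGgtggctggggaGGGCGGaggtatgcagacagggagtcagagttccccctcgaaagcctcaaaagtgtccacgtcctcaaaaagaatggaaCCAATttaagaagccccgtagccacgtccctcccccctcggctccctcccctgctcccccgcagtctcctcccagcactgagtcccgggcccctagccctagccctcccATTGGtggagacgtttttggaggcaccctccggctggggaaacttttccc

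These 3 windows differ in composition. The Col4a2 window is 73.7% G and C with 3 GC boxes and 1 CCAAT box, the Col1a2 window 61% with 2 of each, and the Col3a1 window 37.7% with 1 TATA box and neither of the others. Windows were found for 33 of the 41 genes (36 windows), not for Col1a1, Col2a1 and Col5a2. TATA letters were in 13.9% of the collagen windows and in 13.6% of all 32851 windows of that length, CCAAT letters in 33.3% and 37.4%, and GC box letters in 58.3% and 35.7%.

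The collagen repertoire of each state was led by a few genes. In mESCs and in day 7 and day 9 cells, Col18a1, which encodes the basement-membrane proteoglycan from which endostatin is cut, had the highest level of the 26 other-type genes and held 70.4% to 83.8% of their summed FPKM. Col18a1 measured 64.9, 67.3 and 60.1 FPKM in the 3 WT mESC libraries, 65.8, 65 and 56.7 in KO mESCs, 72.8, 69.9 and 68.1 at WT day 7 and 77.5, 66.8 and 73.9 at KO day 7. In NSCs it measured 2.9, 1.51 and 3.79 in WT and 5.18, 1.31 and 4.44 in KO. The NSC libraries lay far below all others, and the differences from mESCs were -4.17 ± 0.26 (SE) in WT and -3.89 ± 0.26 in KO on the log2(FPKM + 1) scale.

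Col2a1, the chain of cartilage collagen, which is also made by notochord and early neuroepithelium, led the fibrillar class at day 7 and day 9. It measured 4.63, 2.83 and 2.6 FPKM in WT mESCs and 2.79, 2.13 and 1.55 in KO mESCs. At day 7 it measured 39.9, 50.8 and 46.8 in WT and 35.6, 36 and 43.6 in KO, and at day 9 37.3, 53.9 and 46.7 in WT and 62.8, 53 and 70.2 in KO. In NSCs the values were 0.522, 1.7 and 0.788 in WT and 0.354, 0.119 and 0.568 in KO. Every day 7 and day 9 library was thus above every mESC and NSC library. The leading fibrillar gene was Col5a1, whose chain regulates fibril diameter, in mESCs (mean 4.8 FPKM in WT and 3.98 in KO) and Col11a1, the minor chain of cartilage fibrils, in NSCs (11.6 and 16.5).

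**Figure D1:**
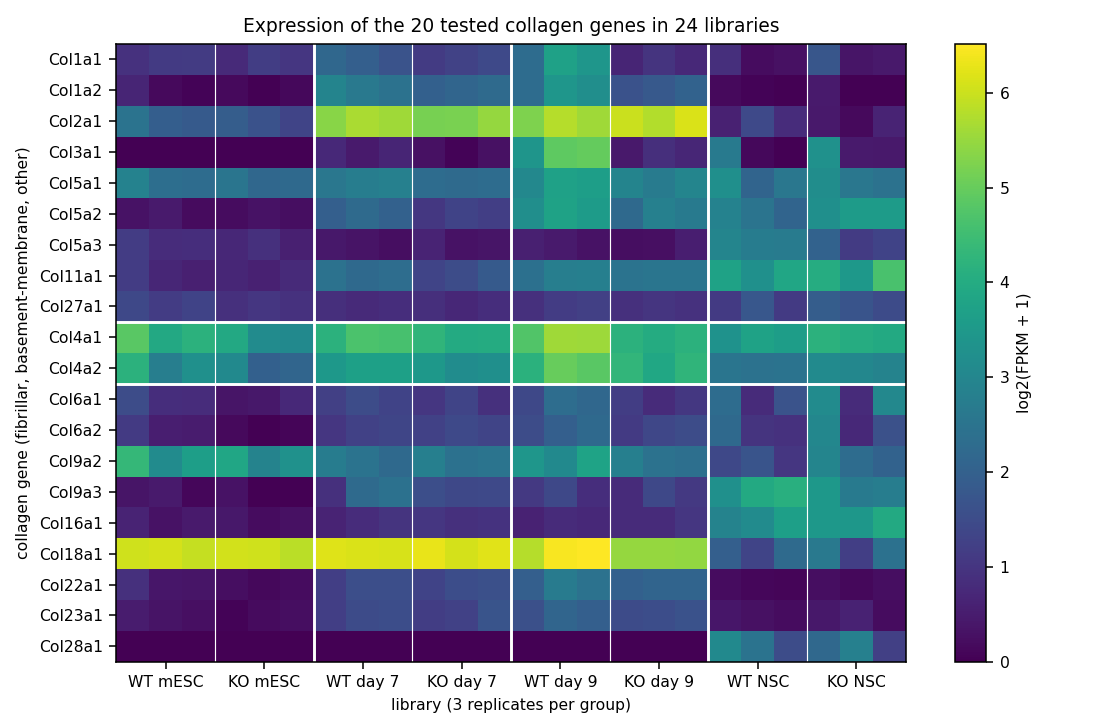
Log2(FPKM + 1) of the 20 tested collagen genes (rows: fibrillar above, type IV in the middle, other types below) in the 24 libraries (columns, 3 per group, ordered from mESCs to NSCs). Col18a1 is bright in all libraries but the NSCs, Col2a1 at day 7 and day 9 in both genotypes, and Col3a1 in WT day 9 libraries and, more faintly, in replicate 1 of both NSC groups.

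Summed over all 41 genes, collagen transcripts were highest in WT day 9 cells, at 289 ± 78.2 FPKM (SD, n = 3), against 126 ± 25 in WT mESCs, 193 ± 11.6 at WT day 7 and 87.4 ± 7.46 in WT NSCs. In KO cells the sums were 98.8 ± 14.1, 166 ± 10.1, 178 ± 12.3 and 110 ± 24.2. The 3 WT day 9 libraries spread widely, at 199, 340 and 328 FPKM, with replicate 1 lowest, and all 3 lay above the 3 KO day 9 libraries at 179, 165 and 190.

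The stages were compared within each genotype. From WT mESCs to WT day 7, 11 of the 20 genes were called, 8 of them higher and 3 lower, where 59.2% of all tested genes were called and 29.1% were called higher. At WT day 9, 14 were called, 13 higher and 1 lower, against 71.5% and 36.4% of all tested genes. The median change of the 20 genes was 1.08 at day 9 against 0.01 over all tested genes. In WT NSCs, 12 were called against mESCs, 6 higher and 6 lower (75.2% of all genes called). From WT day 9 to WT NSCs, 17 of 20 were called, 12 lower and 5 higher, against 55.1% of all tested genes called and 30.3% called lower. In KO cells 12 were called at day 7 (11 higher), against 61.3% of all genes and 29.5% called higher, 13 at day 9 (12 higher), against 71.3% and 35.7%, and 13 in NSCs (10 higher), against 76% of all genes. Scaling all libraries to equal sums of FPKM moved the median of all genes by 0.18 to 0.44 in the comparisons with mESCs. The share of higher genes among all called then went from 49.1% to 66.4% at WT day 7, from 50.9% to 69.1% at WT day 9 and from 49.1% to 66.2% in WT NSCs. In KO cells it went from 48.1% to 63.3%, from 50.1% to 64% and from 49.7% to 68.3%. The collagen counts under that scaling were 8 higher and 2 lower, 14 and 0, and 7 and 3 for the WT stages, and 11 and 0, 12 and 0, and 12 and 2 for the KO stages.

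By class, of 9 fibrillar genes 7 were higher and 1 was lower in WT day 9 cells than in WT mESCs, both type IV genes were higher, and of 9 other genes 4 were higher. In KO day 9 cells 5 fibrillar, both type IV and 5 other genes were higher and 1 other gene was lower. The rises in WT cells included Col3a1 (4.42 ± 0.65), which passed the filter only through this group, Col5a2, another chain of type V (3.20 ± 0.19), Col1a2 (2.68 ± 0.23) and Col1a1 (2.11 ± 0.32), the 2 chains of type I collagen, and Col11a1 (1.86 ± 0.22). The same 2 type IV genes, the widely used chains of basement membrane, were lower in WT NSCs than in WT day 9 cells, by -1.74 ± 0.24 for Col4a1 and -2.18 ± 0.28 for Col4a2. In WT NSCs against mESCs, Col4a1 differed by -0.77 and Col4a2 by -0.92, and both calls were lost without WT mESC replicate 1 (-0.50 with adjusted p = 0.0671 and -0.54 with adjusted p = 0.0647, limma) and with equal sums (adjusted p = 0.206 and 0.089).

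The 6 genes higher in WT NSCs than in WT mESCs were Col9a3, Col11a1, Col16a1, Col28a1, Col5a2 and Col5a3, of which Col9a3, Col11a1 and Col5a2 were also higher at WT day 9. Col9a3, a chain of the fibril-associated type IX, was 3.47 ± 0.31 higher in WT NSCs than in WT mESCs, Col11a1 2.82 ± 0.22, Col16a1, a fibril-associated chain, 2.76 ± 0.18, Col28a1 2.36 ± 0.31, Col5a2 2.19 ± 0.19 and Col5a3, the third chain of type V, 1.86 ± 0.19. Col28a1 and Col5a3 passed the filter only through the WT NSCs. The locus of Col9a3 overlaps Tcfl5 and it is not stated whether reads were counted by strand. Col28a1, whose product is found around peripheral glia, was listed at 0 in all 18 libraries of the other states and at 7.55, 4.61 and 1.84 FPKM in WT NSCs and 3.58, 6.18 and 1.33 in KO NSCs. The NSC libraries overlapped between genotypes for this gene.

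Several weaker stage calls rested on single libraries. At WT day 7, Col1a1 was not called without WT mESC replicate 1 (adjusted p = 0.0554) or WT day 7 replicate 1 (0.0759), Col27a1 without WT mESC replicate 1 (0.0764), WT mESC replicate 3 (0.0577) or WT day 7 replicate 2 (0.0688), and Col5a3 without WT mESC replicate 1 (0.0503). At WT day 9, Col9a3 was not called without WT mESC replicate 3 (0.084) or WT day 9 replicate 2 (0.101), nor Col5a3 without WT mESC replicate 1 (0.119), WT day 9 replicate 2 (0.0542) or WT day 9 replicate 3 (0.098). In WT NSCs against mESCs, Col22a1 was not called without WT mESC replicate 1 (0.238), WT NSC replicate 2 (0.0742) or WT NSC replicate 3 (0.0899), and against day 9 cells Col5a1 was not called without WT NSC replicate 2 (0.055). In KO cells the calls lost in this way were of Col9a2, Col4a1, Col4a2 and Col5a1, without any 1 of the KO mESC or KO day 7 libraries, KO day 9 replicate 1 or 3 or KO NSC replicate 1, with adjusted p up to 0.149.

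KO and WT cells were then compared within each state, the question being which collagens depend on genotype. In mESCs none of the 20 genes was called by limma, 3 had an unadjusted p under 0.05, and 0.529% of all tested genes were called. The median difference was -0.21, with 18 of the 20 estimates negative. The type IV pair gave the largest differences. Col4a1 measured 28, 14.2 and 17.3 FPKM in WT mESCs and 14.4, 7.88 and 7.49 in KO mESCs, a difference of -0.93 ± 0.24 (adjusted p = 0.103), and Col4a2 17.1, 5.92 and 8.59 against 7.46, 3 and 3.37, a difference of -1.01 ± 0.28 (adjusted p = 0.159). In each genotype replicate 1 was highest, and the groups overlapped only through KO replicate 1. With the replicate number as a block, both were called, with adjusted p = 0.0411 for Col4a1 and 0.0217 for Col4a2. Both were also called without WT mESC replicate 2 (-1.13 with adjusted p = 0.0397 and -1.32 with 0.0299) and without KO mESC replicate 1 (-1.21 with 0.0247 and -1.35 with 0.0294). The shares of all tested genes called were 0.925% and 0.388%.

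At day 7 a single gene, Col5a2, was called, lower in KO cells, where 3.68% of all tested genes were called and 2.5% were called lower. It measured 2.95, 3.76 and 3.1 FPKM in WT and 1.09, 1.49 and 1.29 in KO libraries. The groups did not overlap, and the difference was -0.90 ± 0.19 (adjusted p = 0.0059). Col11a1, at 4.49, 3.67 and 4.02 FPKM in WT and 1.55, 1.88 and 2.58 in KO, came next without being called (-0.76, adjusted p = 0.0621). Some markers of other cells also differed at day 7. The summed level of 6 mesoderm genes was 68.5 to 207 FPKM in WT and 8.3 to 9.94 in KO day 7 libraries (T, the brachyury gene, 52.1 to 132 and 0.719 to 2.03), that of 6 notochord and floor-plate genes 51.4 to 104 and 25.6 to 28.7, and that of 8 mesenchyme and fibroblast genes 29.5 to 58.7 and 12.7 to 15.3. The mesenchyme sum was led by Acta2 (21.2 to 36.1 and 6.3 to 9.73). The endothelial (11 to 16.9 and 5.94 to 8.95), meninges and pericyte (1.22 to 2.45 and 0.11 to 0.182) and endoderm sums (77.6 to 92.2 and 60 to 70.9) were also lower in each KO library, while the neurectoderm sum was higher (68.5 to 94.5 and 122 to 136). The NSC gene sum was lower (272 to 345 and 174 to 271). The cartilage (5.27 to 10.1 and 5.55 to 7.98) and neural crest sums (6.4 to 6.85 and 5.37 to 6.57) overlapped. The part of these markers in the difference was not tested.

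At day 9 KO cells had lower levels of both type I chains, the type III chain, 1 of 3 type V chains and 1 type IV chain. Of the 20 genes, 5 were called, all lower in KO cells (25%), where 6.68% of all tested genes were called and 4.11% were called lower. The fibrillar ones were Col1a1, Col1a2, Col3a1 and Col5a2, and Col4a1 is of type IV. The median difference was -0.55 over the 20 genes and 0.00 over all tested genes, and 17 of the 20 estimates were negative, against 18 in mESCs and 13 at day 7. With libraries scaled to equal sums, 6 collagens were called lower and none higher, while the share of higher genes among all called went from 38.6% to 22.7%.

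Col3a1, the chain of the reticular fibrils of soft tissue and vessel walls, differed most. It measured 9.55, 28.8 and 30.5 FPKM in WT day 9 libraries and 0.368, 0.851 and 0.616 in KO. The lowest WT library lay far above the highest KO library, and the difference was -3.75 ± 0.65 (adjusted p = 0.00091). Col3a1 passed the filter only through the WT day 9 group, so this test and its place among the 5 calls rest on a gene that this group admitted, and without the filter its adjusted p was 0.000481. At day 7 Col3a1 was still low in both genotypes, at 0.687, 0.378 and 0.598 FPKM in WT and 0.216, 0.0388 and 0.232 in KO, and in mESCs it was listed at 0 in all 6 libraries.

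Col1a1 measured 3.96, 12.3 and 9.69 FPKM in WT day 9 cells and 0.599, 0.976 and 0.691 in KO, a difference of -2.35 ± 0.32 (adjusted p = 3.88e-05). Its partner Col1a2 measured 3.95, 9.65 and 8.27 in WT and 2.11, 2.52 and 3.15 in KO (-1.14 ± 0.23, adjusted p = 0.00233), and was not called with a pseudocount of 0.1 (-1.38, adjusted p = 0.218). Type I collagen is made of these 2 chains, and neither gene overlapped between WT and KO at day 9. KO day 9 Col1a1 lay near its mESC level of 0.721 to 1.28 FPKM, whereas Col1a2 in KO day 9 cells lay well above its mESC level of 0 to 0.131.

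Col5a2 measured 8.28, 12.6 and 10.9 FPKM in WT day 9 cells and 3.67, 6.13 and 5.36 in KO (-0.94 ± 0.19, adjusted p = 0.0027), without overlap. The difference on the log2 scale was close to that at day 7, although the level in KO cells had risen from 1.29 to 5.05 FPKM on average. Col4a1 measured 25.8, 47.5 and 46.2 FPKM in WT and 17.1, 15 and 17.3 in KO (-1.18 ± 0.24, adjusted p = 0.00309), and its neighbour Col4a2 16.8, 31.1 and 27.9 in WT and 18.4, 13.7 and 18.1 in KO (-0.53, not called). For Col4a1 the groups did not overlap and for Col4a2 they did.

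**Figure D2:**
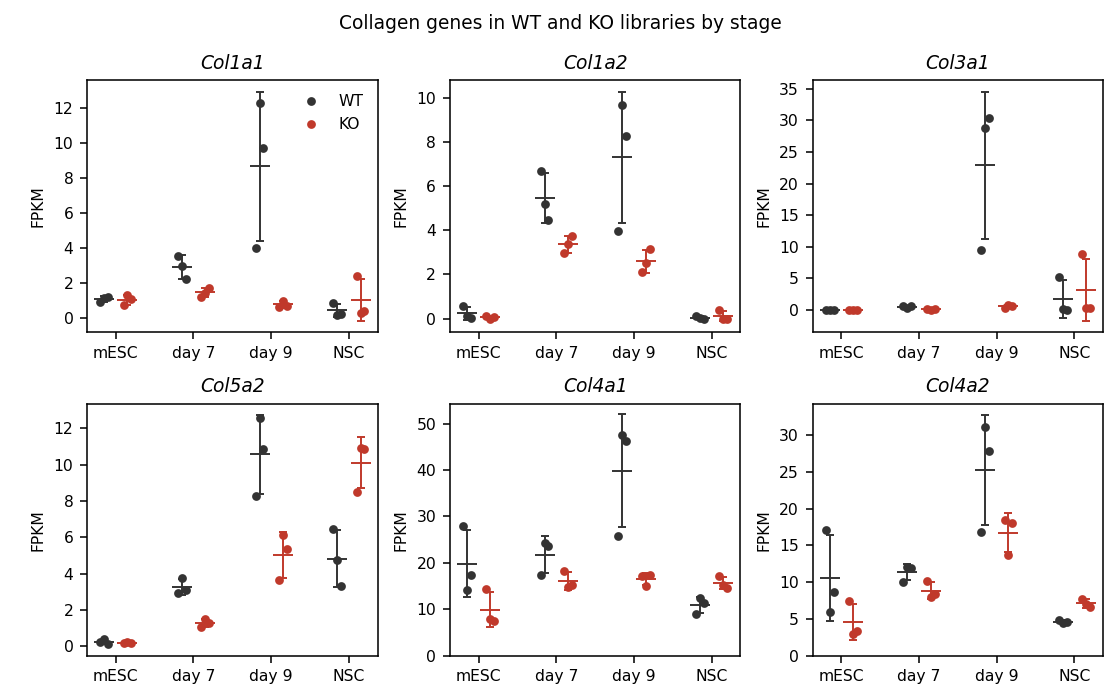
FPKM of 6 collagen genes in each library (points; WT black, KO red) by stage, with the mean (horizontal bar) and SD (n = 3). Col1a1, Col1a2, Col3a1, Col5a2 and Col4a1 are higher in each of the 3 WT day 9 libraries than in any KO day 9 library, and WT day 9 replicate 1 is the lowest of the 3 WT day 9 values in each panel.

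The other highly expressed collagens at day 9 went different ways. Col18a1 measured 54.2, 86.6 and 90.5 FPKM in WT and 43.7, 43.8 and 43 in KO. The groups did not overlap, yet it was not called (-0.78, adjusted p = 0.0928). It was called without WT day 9 replicate 1 (-1.01, adjusted p = 0.0321) and when only the day 9 libraries were fitted (adjusted p = 0.0375). The fit of day 9 libraries alone called 11.4% of all tested genes. Col2a1 was the exception in direction among the abundant genes, with 0.43 higher in KO (values above), and was not called. WT day 9 replicate 1 was the lowest WT library for each of the 5 called genes and for Col18a1 and Col2a1. No call of the 5 was lost when any 1 library was left out.

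Some markers of other cells also differed at day 9. The 6 notochord and floor-plate genes summed to 160, 256 and 223 FPKM in WT day 9 libraries and to 16.6, 65.2 and 28.3 in KO, of which Shh was at 21.5 to 43 and 1.6 to 10.3, and Noto, which marks the notochord itself, was listed at 0 in 5 of the 6 libraries. The 6 mesoderm genes summed to 21.4 to 57.7 FPKM in WT and 11.9 to 21.8 in KO, which overlap, and 4 meninges and pericyte genes to 2.42 to 7.35 and 0.514 to 0.742, among them Foxc1 at 2.04 to 6.39 and 0.379 to 0.695. Of these 4 genes all were above 0 in WT and 1 was at 0 in each KO library. The 5 cartilage genes summed to 12.1 to 16.4 and 7.1 to 8.88, nearly all of it Sox9 (11.5 to 14.5 and 6.64 to 8.37), which neural cells also express and which was not called. The sums of the 8 mesenchyme and fibroblast genes overlapped, at 28.2 to 65.4 and 23.7 to 44.4, and 1 of the 5 that were tested was called lower, while Lum, a fibroblast proteoglycan, was at 0.732, 3.75 and 3.91 in WT and 0.192, 0.0938 and 0 in KO. WT day 9 replicate 1 was lowest of the WT libraries in each of these sums. The sums of the 5 neural crest genes (7.2 to 12.5 in WT and 7.59 to 11.6 in KO) overlapped, while of the 4 tested 1 was called higher and 1 lower. Tfap2a was at 0.402 to 0.451 in WT and 2.92 to 5.47 in KO, and Ets1 at 3.88 to 8.86 and 2.75 to 3.72. The 5 endothelial genes reached 8.23 to 17.9 and 3.64 to 7.78, and 4 neurectoderm genes 110 to 178 and 165 to 205. The sum of 9 endoderm genes was higher in each KO library (12.4 to 19.5 in WT and 19.6 to 23.4 in KO), and 1 of the 3 that were tested was called higher. The gene of this list that was higher in each KO library was Fst (6.57 to 7.27 in WT and 15.3 to 18 in KO). Sox17 (1.05 to 1.65 and 0.3 to 0.613), Gata4 (0.268 to 1.43 and 0 to 0.169) and Thbd (0.438 to 1.1 and 0.15 to 0.357) were lower in each KO library. The part of these cells in the collagen differences was not tested.

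The type IV pair changed in proportion. The ratio of Col4a1 to Col4a2 FPKM was 0.926 to 1.1 in the 3 KO day 9 libraries and 1.53 to 1.66 in the 3 WT day 9 libraries. In the 18 libraries of the other states it was 1.63 to 2.77. KO day 9 was therefore the one group in which Col4a2 reached the level of Col4a1, and every one of its libraries lay below the other 21. This ratio was picked after its values were seen and was not tested.

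**Figure D3:**
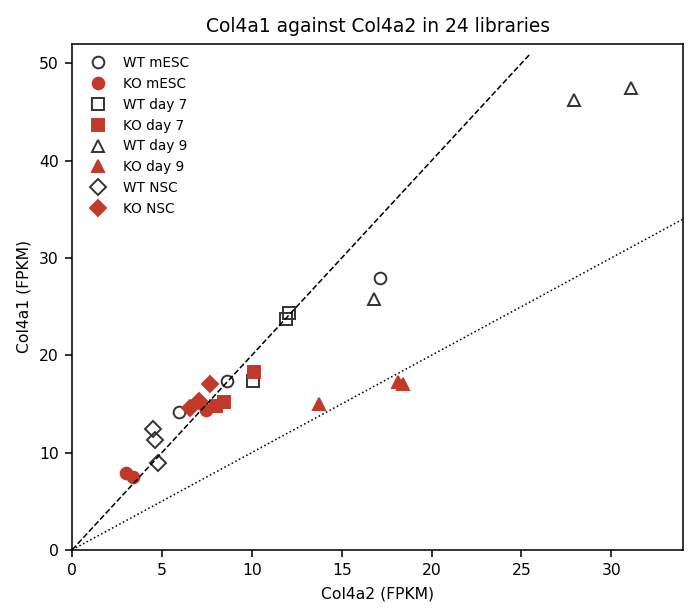
Col4a1 against Col4a2 (both FPKM) in the 24 libraries, WT open and KO filled, with a shape for each stage; the dotted line marks equal FPKM and the dashed line a ratio of 2. The 3 KO day 9 libraries (filled triangles) lie along the dotted line at ratios of 0.926 to 1.1, the others at 1.53 or more.

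In NSCs, of the 20 genes 3 were called, Col5a2 and Col9a2 higher and Col5a3 lower in KO cells, where 6.02% of all tested genes were called. With equal sums the same numbers, 2 higher and 1 lower, were called, and the share of higher genes among all called went from 42.2% to 54.2%. When only the NSC libraries were fitted, no collagen was called, where 0.479% of all tested genes were called. The median difference was 0.38 over the 20 genes and 0.01 over all tested genes. Some markers of other cells differed as well. Of 4 tested neural crest genes 1 was called higher and 1 lower in KO NSCs, with list sums of 26.9 to 43 FPKM in WT and 27 to 29.5 in KO, Tfap2a at 0.336 to 0.531 and 4.72 to 7.37, and Sox10 at 0.757, 9.17 and 6.75 in WT and at most 0.856 in KO. A single gene was called higher in the endoderm list (3.26 to 3.34 and 6.13 to 6.71) and lower in the meninges and pericyte list (7.69 to 10.9 and 3.95 to 7.48) and the cartilage list (Sox9, 36.1 to 57.7 and 19.7 to 34.9), and none in the mesenchyme list. In the meninges and pericyte list Cspg4 was at 5.23 to 7.99 in WT and 1.91 to 5.09 in KO. Its Foxc1 values overlapped (1.74 to 3.01 and 1.93 to 2.6), and Rgs5 and Abcc9 were near 0. The part of these markers in the collagen differences was not tested.

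Col5a2 measured 6.46, 4.73 and 3.3 FPKM in WT and 8.48, 10.9 and 10.9 in KO NSCs (0.96 ± 0.19, adjusted p = 0.00299). Col5a3 measured 6.84, 5.7 and 5.49 in WT and 3.16, 1.18 and 1.49 in KO (-1.31 ± 0.19, adjusted p = 0.000169), and it too passed the filter only through the group in which it was high (adjusted p without the filter, 0.00015). These 2 type V chains thus differed in opposite directions in the same libraries, both without overlap, while Col5a1, the common chain, measured 8.55, 3.27 and 5 in WT and 8.16, 5 and 4.52 in KO. Col9a2, a chain of the type IX collagen that coats cartilage-type fibrils, measured 1.64, 2.25 and 1.04 in WT and 6.82, 3.9 and 3.17 in KO (1.06 ± 0.29, adjusted p = 0.029). That call was lost without WT NSC replicate 3 (adjusted p = 0.132), KO NSC replicate 1 (0.146) or KO NSC replicate 2 (0.0563).

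Replicate 1 of both NSC groups had the highest Col3a1, Col6a3 and Col1a1 of its genotype. Col3a1 measured 5.28 FPKM in WT replicate 1 and 8.86 in KO replicate 1, against 0.0999 and 0 in the other WT and 0.384 and 0.367 in the other KO libraries. Col6a3, a chain of the beaded filaments, measured 0.819 and 3.02 in the replicates 1 and at most 0.107 in the others, and Col1a1 0.845 and 2.37 against at most 0.358. The fibroblast genes Lum, Dcn and Postn were at 0.304, 0.597 and 0.779 FPKM in WT replicate 1, at 1.9, 2.42 and 5.03 in KO replicate 1, and at 0 in the other 4 NSC libraries. These 3 were picked from the list of 8 mesenchyme and fibroblast genes after their values were seen. The whole list did not set replicate 1 apart, with sums of 43.6, 52.8 and 41.9 FPKM in WT and 51.3, 31.8 and 46.8 in KO, and Pdgfra measured 5.85 in WT replicate 1 against 27.4 and 19.8 in the other WT libraries. WT replicate 1 also stood apart in the endothelial sum (8.74 FPKM against 1.62 and 0.605, with Emcn at 6.56) and in the neurectoderm sum (45 against 204 and 124, with Hes5 at 15.3 against 157 and 81.6). The source of these transcripts was not tested. Without replicate 1 of both genotypes, an alternative added after seeing the data, Col5a2 (1.26, adjusted p = 0.000452) and Col5a3 (-1.50, adjusted p = 1.58e-05) were called, Col9a2 was not (0.81, adjusted p = 0.161), and Col9a3 was called, lower in KO (-1.32, adjusted p = 0.017). The share of all genes called there was 8.7%, against 6.02% with all libraries. Without WT NSC replicate 1 alone, 5 genes were called, where the share of all genes called rose from 6.02% to 11.2%, with Col9a3 (-1.07, adjusted p = 0.0359) and Col2a1 (-0.72, adjusted p = 0.0367) added. Leaving out another library added Col27a1 (without WT NSC replicate 2, 0.59, adjusted p = 0.0223), Col16a1 (without WT NSC replicate 3, 0.61, adjusted p = 0.047) or Col6a1 (without KO NSC replicate 2, 1.49, adjusted p = 0.00915). In these fits 6.31%, 4.24% and 4.01% of all tested genes were called.

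**Figure D4:**
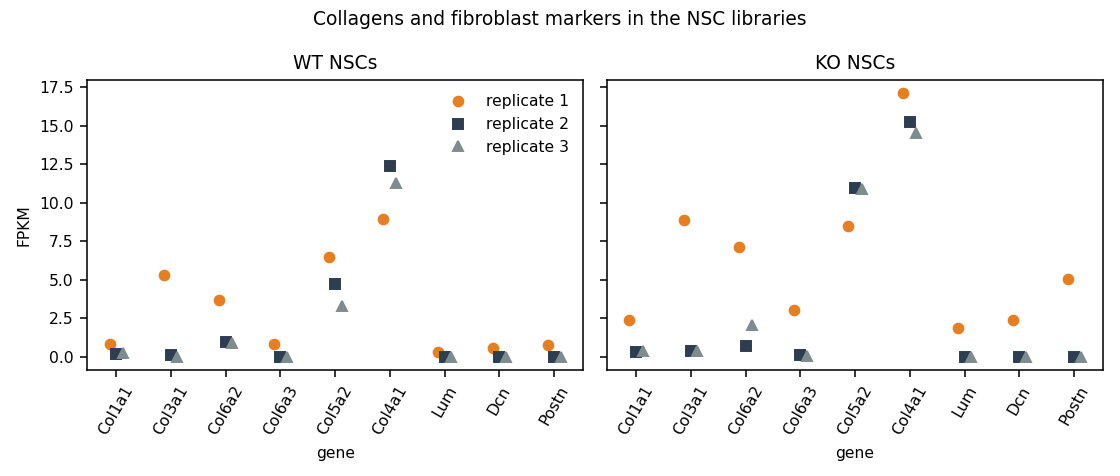
FPKM of 6 collagen genes and 3 fibroblast genes (Lum, Dcn, Postn) in the 3 WT (left) and 3 KO (right) NSC libraries. Replicate 1 (orange circles) of both genotypes holds the highest Col3a1, Col6a3, Lum, Dcn and Postn, whereas Col5a2 is lowest in replicate 1 among the KO libraries.

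Whether the KO difference changed with the state was tested as an interaction. Between day 7 cells and mESCs no collagen was called by limma, 1 had an unadjusted p under 0.05, and 1.68% of all tested genes were called. Between day 9 cells and mESCs 2 were called, both lower, where 2.68% of all tested genes were called and 1.35% were called lower: Col1a1 (-2.30 ± 0.45, adjusted p = 0.00472) and Col3a1 (-3.75 ± 0.92, adjusted p = 0.0327), which passed the filter only through WT day 9. The Col3a1 interaction was lost in 13 of 18 alternatives, 11 of which left out 1 of the 12 libraries (adjusted p = 0.0526 to 0.102), which left Col1a1, and it held without WT day 9 replicate 1, when 4 were called (2.83% of all genes), with Col1a2 (-1.28, adjusted p = 0.00775) and Col5a2 (-1.04, adjusted p = 0.044) added. Under equal sums both remained called and the share of higher calls over all genes went from 49.4% to 36.7%.

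Between NSCs and mESCs 4 were called, where 2.26% of all tested genes were called. The KO difference was higher in NSCs for Col4a1 (1.43 ± 0.34, adjusted p = 0.0301), Col4a2 (1.53 ± 0.40, adjusted p = 0.0451) and Col5a2 (1.01 ± 0.27, adjusted p = 0.0497), and lower for Col5a3 (-1.10 ± 0.27, adjusted p = 0.037), which passed the filter only through the WT NSCs (adjusted p without the filter, 0.0321). All 4 stood near the threshold. None of them was called without KO mESC replicate 2, WT NSC replicate 3, KO NSC replicate 2 or KO NSC replicate 3, 1 was without WT mESC replicate 1 or 3 or KO mESC replicate 3, and 2 were without WT mESC replicate 2, KO mESC replicate 1, WT NSC replicate 2 or KO NSC replicate 1. In a fit of these 4 groups alone none was called, where 0.471% of all tested genes were called. With the replicate block 6 were called, where the share of all genes called rose from 2.26% to 4.16%, with Col9a2 (1.43, adjusted p = 0.00812) and Col6a2 (1.05, adjusted p = 0.0425) added. Under equal sums the counts were also 3 higher and 1 lower, with Col9a2 (1.52, adjusted p = 0.0471) called and Col5a2 not, and the share of higher calls over all genes went from 50.4% to 61.7%. Both type IV genes were lower in KO than in WT mESCs and higher in each KO than in any WT NSC library (Col4a1 8.95, 12.4 and 11.3 FPKM in WT and 17.1, 15.3 and 14.5 in KO; Col4a2 4.79, 4.48 and 4.6 and 7.7, 7.07 and 6.56), and neither NSC difference was called.

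A direct comparison of NSCs with day 9 cells was added after it was seen that Col5a2 was lower in KO cells at day 9 and higher in KO NSCs. The interaction was called for 7 of the 20 genes, 6 higher and 1 lower, where 5.84% of all tested genes were called. The 7 include Col5a2 itself, and Col3a1 and Col5a3, which passed the filter only through WT day 9 and WT NSCs. The count is therefore a description and is not read against that share. For Col5a2, whose pattern led to this comparison, the difference of 1.90 ± 0.27 restates the values above and is given as a description. Col1a1 (2.74), Col3a1 (4.22), Col9a2 (1.96), Col4a1 (1.67) and Col1a2 (1.23) were also higher and Col5a3 (-1.21), again a gene that the WT NSCs admitted, lower. Of these, Col1a2 was lost without WT day 9 replicate 2 (adjusted p = 0.0895), WT day 9 replicate 3 (0.0785), KO day 9 replicate 1 (0.0731), WT NSC replicate 3 (0.0508) or KO NSC replicate 1 (0.065). In a fit of the compared groups alone Col3a1 (adjusted p = 0.101) and Col1a2 (0.0777) were lost, and with a pseudocount of 0.1 Col5a3 (0.179) and Col1a2 (0.313). Without replicate 1 of both NSC groups Col3a1 remained called (4.14) and Col1a2 did not (adjusted p = 0.0528). Under equal sums 6 were higher and 1 lower, and the share of higher calls over all genes went from 53.5% to 73.9%.

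**Figure D5:**
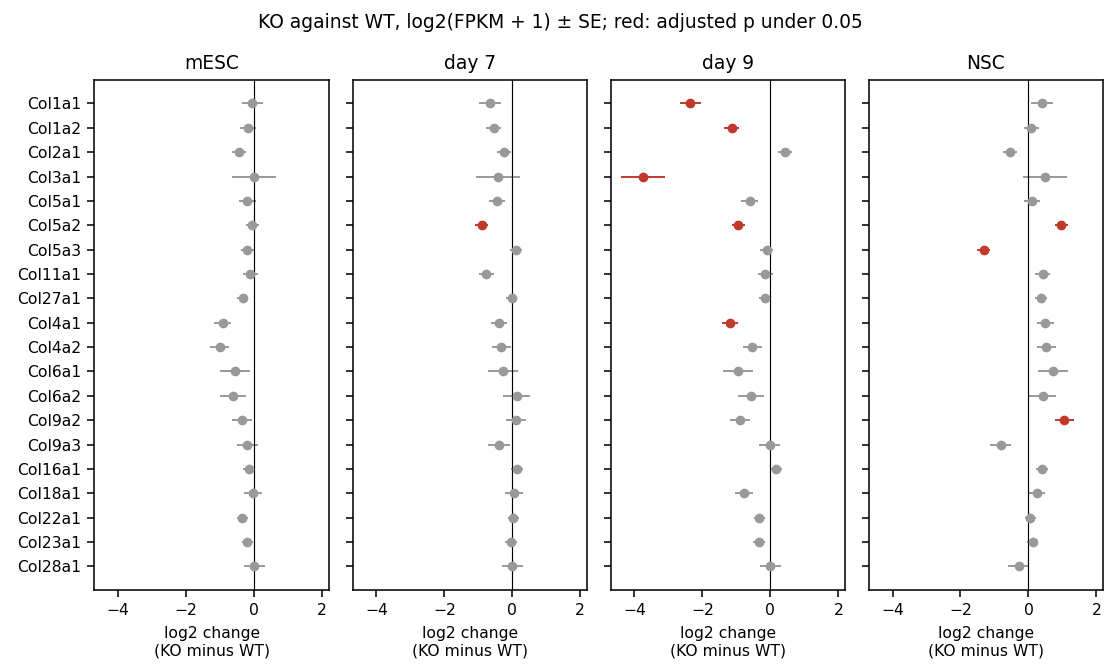
Difference between KO and WT on the log2(FPKM + 1) scale, with its SE, for the 20 tested collagen genes (rows) in each state (columns); red points have an adjusted p under 0.05 in limma, grey points do not. There are 5 genes in red left of 0 at day 9, and in NSCs Col5a2 and Col9a2 are red to the right and Col5a3 to the left.

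The genes that make, secrete, sense and degrade collagen were read from lists of general knowledge. Each count that follows stands against the share of all tested genes called in that state, 0.529% for mESCs, 3.68% for day 7, 6.68% for day 9 and 6.02% for NSCs. Of 19 modification and folding genes, all tested, none was called in KO against WT mESCs, 1 was lower at day 7, 1 lower at day 9, and 2 were higher and 3 lower in NSCs. The prolyl 3-hydroxylase gene Leprel1 measured 7.98 ± 3.28 FPKM in WT and 2.43 ± 0.51 in KO day 7 cells (SD, n = 3; -1.32, adjusted p = 0.00533), and the lysyl hydroxylase gene Plod2 52.7 ± 3.82 and 30.4 ± 2.57 at day 9 (-0.78, adjusted p = 0.00866). In NSCs the collagen galactosyltransferase gene Glt25d2 (7.22 ± 2.12 and 2.74 ± 0.807, -1.13) and the chaperone gene Fkbp10 (17.8 ± 1.64 and 9.65 ± 4.6, -0.92) were lower. Plod2 and Fkbp10 overlap other listed genes, so that reads could be counted for either.

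Of 20 genes of secretion, propeptide removal and crosslinking, 13 were tested: none was called in mESCs, 1 was lower at day 7, 1 was higher and 2 were lower at day 9, and 1 was higher and 1 lower in NSCs. Pcolce, the enhancer of procollagen trimming, measured 11.3 ± 4.47 FPKM in WT and 3.38 ± 0.32 in KO day 9 cells (-1.41, adjusted p = 0.0158). Loxl1, a crosslinking oxidase gene, went the other way, at 1.45 ± 0.172 in WT and 3.61 ± 0.662 in KO day 9 cells (0.90, adjusted p = 0.003) and 0.445 ± 0.189 and 1.86 ± 0.771 in NSCs (0.96, adjusted p = 0.00238). The transcription factor genes Creb3l2 at day 7 (-0.93) and Creb3l1 in NSCs (-1.11), which act on secretory genes, were lower.

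Of 10 receptor genes 4 were tested, and 2 were called, both in NSCs. Ddr1 was higher in KO (128 ± 10.7 against 88.7 ± 12.5 FPKM, 0.53) and Ddr2 lower (-1.56, adjusted p = 0.00605). Ddr2 measured 0.634, 5.45 and 6.38 in WT and 0.569, 0.347 and 0.443 in KO, so that WT replicate 1 lay beside the KO libraries, and its locus overlaps another listed transcript. Of 11 breakdown genes 6 were tested: none was called in mESCs and 2 were lower in each of the other states. Timp3, an inhibitor of metalloproteinases that is anchored in the matrix, measured 15.3 ± 6.69 and 2.29 ± 0.165 at day 7 (-2.21) and 27.3 ± 2.65 and 6.54 ± 4.5 at day 9 (-2.06), and Timp4 5.82 ± 2.54 and 0.877 ± 0.205 at day 7 (-1.78). The locus of Timp3 overlaps Syn3 and that of Timp4 Syn2. Reck, a membrane inhibitor, was lower at day 9 (-0.57), and Mmp2 (-1.41), which cleaves denatured and type IV collagen, and its activator gene Mmp14 (-1.15) were lower in KO NSCs.

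Of 16 basement-membrane partner genes 11 were tested: none was called in mESCs or NSCs, 1 was lower at day 7 and 3 were lower at day 9. Lama1 was at 6.57 ± 0.694 and 3.83 ± 0.58 FPKM at day 7 (-0.65, adjusted p = 0.0453). The laminin chain gene Lamb1 (13.9 ± 5 and 6.73 ± 0.476, -0.88) and the nidogen gene Nid1 (12.2 ± 2.42 and 6.35 ± 1.48, -0.84), whose products bind type IV collagen, were lower at day 9. Of 11 fibril partner genes 6 were tested: none was called in mESCs or at day 7, 1 was lower at day 9 and 2 were lower in NSCs. Tnc, a matrix glycoprotein gene of NSCs, measured 219 ± 32.5 in WT and 98.2 ± 23.6 in KO NSCs (-1.17, adjusted p = 0.00098) and 0.884 ± 0.736 and 0.124 ± 0.0792 at day 9 (-0.67), and Fbn1, a microfibril gene, 8.74 ± 4.79 and 3.55 ± 1.33 in NSCs (-1.03). Sparc belongs to both of these lists.

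The other 21 collagen genes fell below the filter. Of these, 13 never reached 1 FPKM in a library: Col4a3, Col4a4, Col6a4, Col6a5, Col6a6, Col8a1, Col10a1, Col14a1, Col17a1, Col19a1, Col20a1, Col24a1 and Col25a1. The other 8 did: Col6a3, Col7a1, Col8a2, Col9a1, Col11a2, Col12a1, Col13a1 and Col15a1. Without the filter, 6.73% of all genes were called in KO against WT day 9 cells, 3.57% at day 7 and 4.82% in NSCs. Of the 21, 3 were lower in KO day 9 cells, Col9a1 (-1.56, adjusted p = 0.000731), Col15a1 (-0.69, adjusted p = 0.0192) and Col24a1 (-0.20, adjusted p = 0.0471), and 2 in KO day 7 cells, Col13a1 (-0.94, adjusted p = 0.0109) and Col8a2 (-0.81, adjusted p = 0.0212). Col12a1 was lower in KO NSCs (-0.33, adjusted p = 0.0171). Col9a1, the partner of Col9a2 and Col9a3, measured 1.07, 3.76 and 2.37 FPKM in WT and 0, 0.238 and 0.0527 in KO day 9 cells, and 0.309, 1.31 and 0.767 in WT and 1.87, 1.88 and 2.38 in KO NSCs. The groups did not overlap in either state, with KO below WT at day 9 and above it in NSCs.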

How the data were processed

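RNA-seq libraries (stranded poly(A) kit) were made by the authors in 3 biologically independent experiments per group. Reads were trimmed with Trim Galore 0.6.6 and aligned to mm9 with TopHat2 2.1.1, X-chromosomal and ribosomal reads were removed, and expression was estimated with Cuffdiff of Cufflinks. What the authors deposited is 1 FPKM value per gene and library; an accompanying status column, which the authors deposited as text, marks failed estimates, and no collagen gene had one. The library normalization and the use of strand are not given in the sources used here. Another 12 FPKM columns of the table belong to samples not analysed here and were not used.

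Genes with a mean of at least 1 FPKM over the 24 libraries and no failed estimate were tested on log2(FPKM + 1) with limma 3.58.1 (R 4.3.3, statmod 1.5.0, version 1.17.8 of data.table): all 8 groups in 1 fit, a two-sided moderated test with an intensity trend and robust variance, Benjamini-Hochberg adjustment over all 12105 genes tested. A fold change on this scale understates that of low genes. An exact permutation test of 3 against 3 libraries cannot give a p below 0.1. The code was tested on simulated data. Errors beside log2 differences are SE. The p-values measure the spread between the libraries of 1 line per genotype.

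Depth was taken from genes with a mean up to 0.3 FPKM above 0 in at least 4 libraries, of whose 31400 values above 0, 29913 (95.3%) lay within 0.05 of a whole multiple of the gene's step. No library was a copy of another: libraries of a group shared at most 3.74% of values and correlated at 0.955 or more. Replicate numbers of WT and KO libraries come from the labels. Deviations from group means of same-numbered libraries correlated at 0.29, 0.44 and 0.14 in mESCs and 0.34, 0.18 and 0.24 in NSCs, so the block is given there, and not all above 0.1 at day 7, day 9 or between stages.

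Alternatives were a pseudocount of 0.1, no filter, a fit of the compared groups only, a replicate block, equal sums of FPKM and leaving out each library. Members and lists were chosen with earlier results of these data known. By rule, values in every library are given for tested collagens called in a KO against WT comparison or with a group mean of at least 20 FPKM, and from each list the 2 called genes with the largest difference per comparison are named. Other collagens and markers given by library were added after their values were seen. Emid2, the older symbol of Col26a1, does not match the naming rule and was not counted.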

Additional observations from a re-analysis of the deposited data

Results flagged for a closer look

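The KO difference of several collagens depended on the state by the interaction test of limma, on the log2(FPKM + 1) scale. Between day 9 cells and mESCs this held for Col1a1 (-2.30) and for Col3a1 (-3.75), which passed the filter only through WT day 9 and was lost in 13 of 18 alternatives. Between NSCs and mESCs it held for Col4a2 (1.53), Col4a1 (1.43), Col5a2 (1.01) and Col5a3 (-1.10), of 19 alternatives lost in 12, 9, 15 and 10. All 4 were lost in a fit of the compared groups only (adjusted p = 0.15 to 0.229), which called 0.471% of all tested genes. Col5a3 passed the filter only through WT NSCs. Between NSCs and day 9 cells, a comparison added after the data were seen, it held for Col3a1 (4.22), Col1a1 (2.74), Col9a2 (1.96), Col4a1 (1.67), Col1a2 (1.23) and Col5a3 (-1.21). The value for Col5a2 (1.90), whose pattern led to that comparison, is a description. The comparisons share libraries. Groups of 3 are too small for the test of single outlying libraries.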

How the results depend on the processing

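Of 114 calls of single collagens, 85 held under every alternative, and of 1469 alternative values 1337 kept the call, 132 lost it and 0 changed direction. In KO against WT, 5 of 9 calls held throughout: Col5a2 at day 7 and Col1a1, Col3a1, Col4a1 and Col5a2 at day 9. Without the filter the collagens called of 41 were 3 at day 7 and 8 at day 9 for KO against WT (3.57% and 6.73% of all genes called), 21, 26 and 19 for WT day 7, day 9 and NSCs against mESCs (46.9%, 58.1% and 60.3%), 28 for WT NSCs against day 9 cells (43%) and 2 for the NSC interaction with mESCs (2.08%), with more genes tested. Fitting only the compared groups gave 2 at day 7, 8 at day 9 and 0 in NSCs for KO against WT (3.73%, 11.4% and 0.479% of all genes), 1 for the day 7 interaction (1.26%) and 0 for the NSC interaction with mESCs (0.471%). A pseudocount of 0.1 gave 1 for the day 9 interaction (1.36%). With the replicate block the counts were 2 in mESCs, 2 at day 7, 9 at day 9 and 12 for the NSC interaction with day 9 cells (0.81%, 5.3%, 9.54% and 9.14% of all genes); beside the calls given with the results it added Col4a2 for KO NSCs against KO mESCs (adjusted p = 0.0498 against 0.0533 without it) and changed no other call in mESCs and NSCs, and at day 7 and day 9 the libraries share only a number. With 1 library left out the counts ranged from 0 to 2 in mESCs (0.165% to 0.925% of all genes) and from 2 to 5 in NSCs (3.35% to 11.2%) for KO against WT, from 1 to 4 for the day 9 interaction (1.5% to 2.97%) and from 0 to 4 for the NSC interaction with mESCs (1.21% to 5.01%). Without replicate 1 of both mESC groups, added after seeing the data, the interactions gave 1 at day 9 and 2 in NSCs (1.71% and 1.31%), and without replicate 1 of both NSC groups 2 in NSCs (4.25%). Where no construction shows it, the cause was not tested. Read totals per library were not used here, so no counting interval is given for low genes.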
